A study of Mus musculus with 12 samples.

Results

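The tissue difference in the genotype effect asks whether loss of *Man1a2* moved a gene differently in the newborn lung and in the newborn liver. For each gene it was the log2 fold change of null over WT in lung minus the log2 fold change of null over WT in liver, so a value above 0 means a larger rise or a smaller fall in lung. RNA had been sequenced from 2 organs, liver and lung, of newborn mice that were WT (*Man1a2*+/+) or null (*Man1a2*-/-), the pups of crosses between *Man1a2*+/- carriers of the *Man1a2*tm1.1Ahe allele, which lacks exon 2 in every cell of the body. There were 3 libraries for each genotype and tissue and 12 in all, and tissue was taken soon after birth, while the null pups, which breathe poorly, were alive. Of these, 10 libraries entered the leading comparison, with 3 WT and 2 null libraries in each tissue, and 16216 genes had enough reads to be tested. Genes are singled out below as chosen by this same difference. Their number, and any gap between their WT and null values, therefore describes the rule and supports nothing further. Null liver 1 and null lung 1 were left out because they carried RNA of muscle and other tissues. The fit of all 12 libraries is given beside the counts and for the genes named by size of difference or by opposite signs.

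The values that led to leaving out those libraries are a description and were not tested. Summed over 10 skeletal muscle markers, null liver 1 held 6592 CPM (a gene's reads scaled to a common library size) where the other 5 livers held 5.46 to 8.64, and null lung 1 held 14500 where the other 5 lungs held 26.8 to 69.2. Heart markers reached 25750 CPM in null lung 1 against 367 to 896 in the other lungs, and 404 CPM in null liver 1 against 7.42 to 10.1 in the other livers. Markers of stratified epithelium stood at 2931 CPM in null lung 1 and at 14.1 to 25.2 in the other lungs, while its lung epithelial markers summed to 3733 CPM against 27350 to 35300. In the 10 libraries that were kept, hepatocyte markers summed to 162000 to 202100 CPM in the livers and to 49.4 to 770 in the lungs, and lung epithelial markers to 16.9 to 71.4 CPM in the livers, so each library carried the tissue of its label. From these markers, RNA of liver made up 0.0275% to 0.429% of the kept lung libraries, with WT lung 1 and null lung 2 the highest, and RNA of lung 0.0538% to 0.227% of the kept liver libraries. Libraries held 26759463 to 42914295 counted reads, and 3 reads in 1 library correspond to 0.0699 to 0.112 CPM, a limit set by counting error alone. Because the left-out libraries were chosen with their values known, the p-values of the 10-library fit do not allow for that choice.

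*Man1a2* encodes a Golgi alpha-mannosidase that removes mannose from N-linked glycans while glycoproteins mature, a step before complex glycans are built. At birth the lung clears its liquid and starts gas exchange, and the liver takes over glucose supply, lipid handling and detoxification. Cells make cholesterol from acetyl units through the mevalonate pathway, and the enzymes of that pathway are set together by the factor SREBP-2, which low sterol releases from the endoplasmic reticulum. In bulk tissue, fewer cells of a type and less RNA per cell cannot be told apart, and this holds for every gene below.

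*Man1a2* (GRCm38 chromosome 3, 100562208 to 100685503, minus strand) checks the labels. In liver, WT libraries 1, 2 and 3 held 87.4, 54.2 and 68.2 CPM of it and null libraries 2 and 3 held 49.2 and 50.7 CPM, where CPM, as for each gene from here on, is scaled by normalisation factors that take most genes as unchanged. In lung it stood at 103.6, 75.2 and 107 CPM in WT and at 49.3 and 50.8 CPM in null. The left-out null liver 1 and null lung 1 held 51.3 and 42.3 CPM. In each tissue all null values lay below all WT values, as the labels say, although the reads of the remaining exons are counted too. The log2 fold change was −0.49 in liver (not called) and −0.93 in lung (called), and their difference of −0.44 (standard error 0.27) did not pass edgeR's quasi-likelihood test, Benjamini-Hochberg adjusted (adjusted p = 0.397). In all 12 libraries it was −0.55 (adjusted p = 0.390, same test). A difference between tissues in the remaining *Man1a2* transcript was therefore not detectable with these libraries.

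Across all genes, 840 of the 16216 tested (5.18%) differed between tissues at an adjusted p under 0.05 and at least 1.2-fold, which is the call used below. At the threshold, the last gene called was *Vars* (−0.85, standard error 0.22) and the first not called was *Phex* (3.38, standard error 0.88). Of these, 365 lay above 0 (2.25% of all tested) and 475 below 0 (2.93%). The median difference was 0.00 over all genes tested, and the smallest absolute difference among called genes was 0.54. Null against WT alone called 4113 genes in liver (25.4%) and 5687 in lung (35.1%), so far more genes changed in a tissue than were shown to change differently. Of the 840 genes, 136 were called in both tissues with opposite signs (0.839% of all tested), 83 higher in null liver and lower in null lung and 53 the other way round. A further 250 were called in liver only, 396 in lung only, 56 in both with the same sign and 2 in neither.

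**Figure D1:**
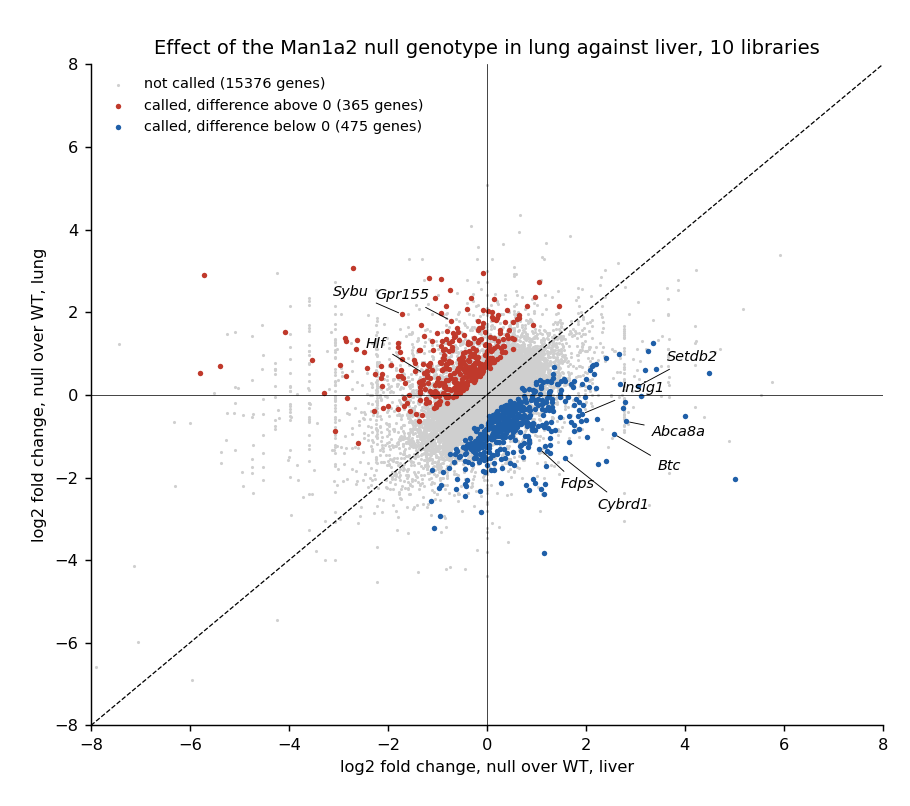
Each point is a gene of the 10-library fit, placed by its log2 fold change of null over WT in liver (x axis) and in lung (y axis), with the 365 called genes above 0 in red, the 475 below 0 in blue, and the dashed line where both effects are equal. Called genes lie away from that line on both sides, and 1 gene that was not called falls outside the axes.

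With all 12 libraries in the fit, 60 of 16155 genes were called (0.371%), 21 above 0 (0.13%) and 39 below 0 (0.241%), and all 60 were among the 840. In that fit 823 of the 840 kept their sign, and 579 had the same sign with an unadjusted p under 0.05. The common dispersion, a measure of the spread between libraries of a group, was 0.0285 with 10 libraries and 0.133 with 12. Keeping null liver 1 and leaving out null lung 1 gave 813 calls, whereas keeping null lung 1 and leaving out null liver 1 gave 6. Where all 12 libraries were kept but weighted by their fit with limma voom, null lung 1 had a weight of 0.0675 and the other libraries 0.697 to 2.73, and 649 genes were called, 548 of them among the 840. DESeq2 with all 12 libraries at full weight called 610 genes, 382 of them among the 840, and with the 10 libraries it called 1631. DESeq2 was not run with null lung 1 alone added. Of the 53 genes named by rule and called with 10 libraries, 10 were also called by edgeR with all 12, namely *Sybu*, *Cybrd1*, *Adra1b*, *Setdb2*, *Rnf144b*, *Fmo1*, *Fdps*, *Psat1*, *Hbegf* and *Mogs*, and 43 were not.

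**Figure D2:**
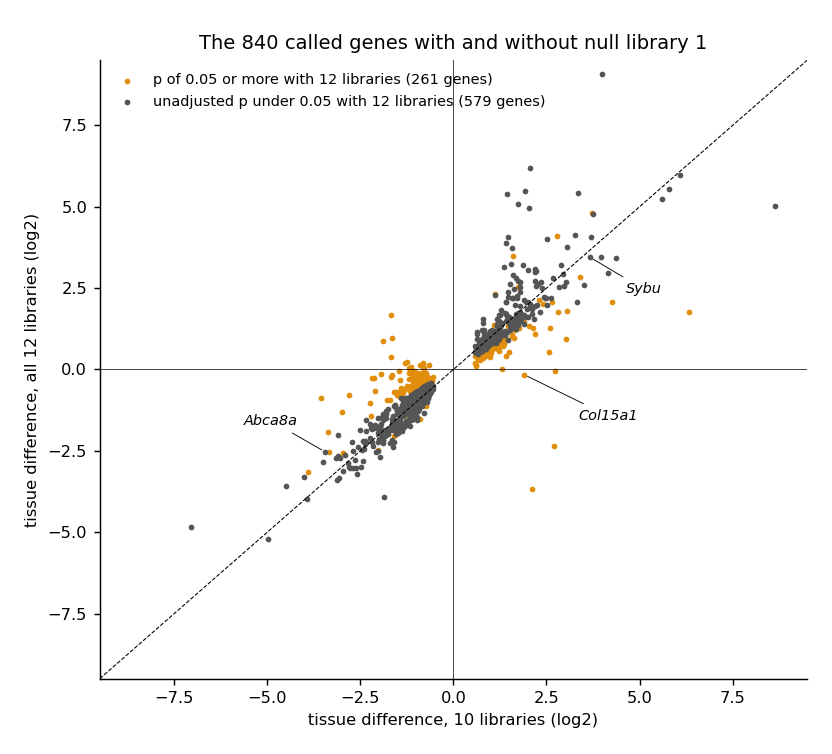
The 840 called genes by their tissue difference with 10 libraries (x axis, log2) and with all 12 (y axis, log2), in grey where the unadjusted p stayed under 0.05 with 12 libraries (579 genes) and in orange where it did not (261 genes). Most points lie near the dashed line of equal values, and *Col15a1* is among the 17 that crossed 0.

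Genes of cholesterol synthesis, uptake and sterol sensing had more called members than any other of the 22 gene lists. Of the 19 genes listed, all had enough reads to be tested, 14 were called, and each of the 14 lay below 0, against 2.93% of all genes tested. In liver 10 of the 19 were called higher in null and none lower, and in lung 14 were called lower in null and 1 higher. The median of the list was −1.61 on the log2 scale for the tissue difference, 0.54 in liver and −0.99 in lung, where the medians over all genes tested were 0.00, −0.00 and 0.01. The list was written with earlier results of these data known. In the fit of all 12 libraries 3 members were called, *Fdps* and *Insig1* among them, and 18 of 19 were still below 0, with a median of −1.33 and an unadjusted p under 0.05 for 17. Leaving out any 1 of the 10 libraries left 10 to 14 called.

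Of the 3 list members named by rule, *Fdps* makes farnesyl diphosphate, the branch point to sterols. Its level was 70.4, 51.8 and 57.8 CPM in WT livers and 138 and 113 CPM in null livers 2 and 3, with 133 CPM in the left-out null liver 1. In lung it was 33.2, 41.8 and 30.2 CPM in WT and 14.4 and 14.1 CPM in null, with 21.0 CPM in the left-out null lung 1. Null libraries lay above all WT libraries in liver and below all of them in lung. The left-out ones did too, but for this and every other gene their levels include RNA of other tissues. The log2 fold change was 1.06 (standard error 0.16) in liver and −1.30 (0.18) in lung, a difference of −2.36 (0.24, adjusted p = 0.00137 by edgeR's quasi-likelihood test, Benjamini-Hochberg adjusted). With all 12 libraries the difference was −2.19 (adjusted p = 0.0189, same test).

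*Msmo1*, which oxidises the methyl groups of early sterols, stood at 64.8, 67.9 and 63.8 CPM in WT livers and at 90.8 and 126 CPM in null livers. In lung its WT libraries held 30.2, 38.7 and 33.3 CPM and its null libraries 11.4 and 12.7 CPM. The groups did not overlap in either tissue, and the difference was −2.22 (standard error 0.22, adjusted p = 0.00137, same test), against −1.81 in all 12 libraries (adjusted p = 0.0753). *Stard4*, a carrier of cholesterol between membranes, rose from 68.4, 63.1 and 64.0 CPM to 115 and 135 CPM in liver and fell from 54.3, 56.4 and 54.9 CPM to 32.1 and 37.1 CPM in lung, a difference of −1.61 (0.16, adjusted p = 0.00137), against −1.82 in all 12 libraries (adjusted p = 0.0596). These 3 genes were among the 6 members called in both tissues with opposite signs, as were *Dhcr7* and *Fdft1*.

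The other members named here were chosen after their values had been seen, and they fell into 3 kinds. *Insig1*, which holds SREBP-2 back in the endoplasmic reticulum, stood at 118, 127 and 122 CPM in WT livers and at 491 and 437 CPM in null livers, while WT lungs held 54.6, 82.6 and 55.5 CPM and null lungs 51.8 and 41.4 CPM. It rose in liver by 1.92 and was not called in lung (−0.46, adjusted p = 0.0732 by edgeR's quasi-likelihood test). *Srebf2*, the gene of SREBP-2, was also called in liver (0.77) and not in lung (−0.11).

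A different kind changed in lung and was not called in liver. *Sqle*, squalene epoxidase, held 83.2, 91.1 and 77.6 CPM in WT and 105 and 72.8 CPM in null livers, which overlap. In lung it held 41.4, 57.0 and 46.5 CPM in WT and 13.9 and 13.7 CPM in null, a log2 fold change of −1.81. *Idi1*, an isomerase early in the pathway, went from 9.49, 16.03 and 12.7 CPM in WT lungs to 3.28 and 3.68 CPM in null lungs, a log2 fold change of −1.87 against −0.03 in liver. *Cyp51*, *Nsdhl* and *Mvk* showed the same order, with lung values of −1.40, −1.23 and −1.15 that were called and liver values of 0.41, 0.66 and −0.14 that were not. Members that were not called in the tissue difference included *Mvd*, *Lss*, *Hmgcs1* and *Sc5d*. *Lss*, lanosterol synthase, was called higher in both tissues, 1.04 in liver and 0.48 in lung, and *Sc5d* was near equal in both (−0.56 and −0.52) with neither called.

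**Figure D3:**
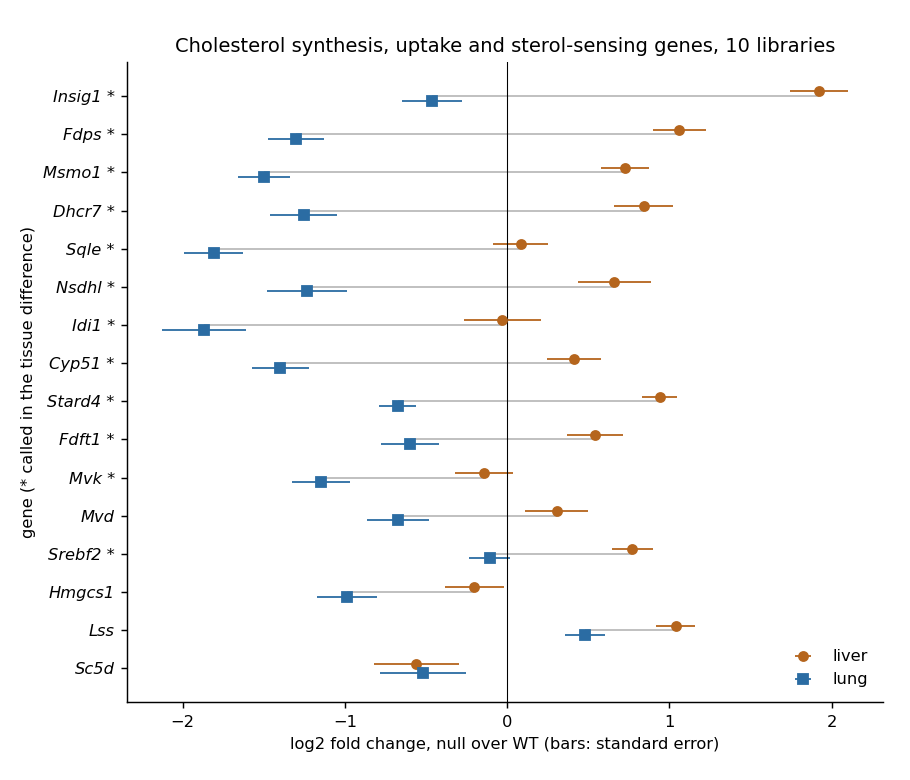
Of the cholesterol list, 16 genes by log2 fold change of null over WT in liver (brown circles) and lung (blue squares) in the 10-library fit, with standard errors as bars and stars on the 12 called genes among them. In 15 of these 16 genes the lung value lies to the left of the liver value, with *Sc5d* the exception.

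Promoter windows of RefSeq (GRCm38.p6, from 250 bases before to 50 after a gene's start) were at hand for 12 of the 19 genes, 8 of them called. All 12 held the letters CCAAT on one strand or the other, the site of the factor NF-Y, which works beside SREBP-2 at sterol genes. So did 37.4% of all 32851 promoter windows. For this and each motif below, a gene counted if any of its windows held the letters, while the share of all windows counts every window. The shares are therefore not like for like. The sterol regulatory element in the form TCACNCCAC was found in 1 of the 12, *Hmgcs1*, and in 1.24% of all windows, and in none of the 8 called genes. The windows below show 1 match for each of 4 called genes and the sterol element of *Hmgcs1*, each read in the direction of its gene with the matched letters in capitals (ATTGG is CCAAT on the other strand).
Msmo1, chr8:64733657-64733686, minus strand, the match starting 96 bases before the gene: ccttagcacggaCCAATcactgcacggcga
Insig1, chr5:28071184-28071213, plus strand, 216 bases before: cgccctcctcccATTGGctccggcggcctc
Nsdhl, chrX:72918400-72918429, plus strand, 109 bases before: agcccgcttcccATTGGtttgggaacgaag
Srebf2, chr15:82147122-82147151, plus strand, 135 bases before: cttcgcgcgccgATTGGctaatgcaagcct
Hmgcs1, chr13:119690204-119690233, plus strand, 137 bases before: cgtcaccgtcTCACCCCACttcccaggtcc
A match describes these letters only, and, counted by gene, called and uncalled members did not differ in holding CCAAT.

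Each gene named by size of difference had a mean of at least 5 CPM in both tissues. In the kept libraries the 8 above 0 had lower values in null liver and higher values in null lung. *Sybu* encodes syntabulin, which links cargo to kinesin motors, and lies on chromosome 15 (44671856 to 44788063). It held 10.9, 17.6 and 15.1 CPM in WT and 4.63 and 4.21 CPM in null livers, and 3.07, 2.23 and 2.18 CPM in WT and 7.74 and 11.7 CPM in null lungs. The groups were apart in both tissues, and the left-out null liver 1 and null lung 1, at 3.82 and 4.58 CPM, fell on the null side too. Its difference was 3.67 (standard error 0.37, adjusted p = 0.00137 by edgeR's quasi-likelihood test, Benjamini-Hochberg adjusted) and 3.45 in all 12 libraries (adjusted p = 0.0189).

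*Gpr155*, a lysosomal membrane protein that senses cholesterol, stood at 9.05, 8.998 and 8.92 CPM in WT and 7.24 and 3.57 CPM in null livers, and at 13.3, 16.03 and 14.5 CPM in WT and 49.2 and 52.2 CPM in null lungs. The left-out null lung 1 held 9.47 CPM, below the WT lungs, and the difference was 2.52 with 10 libraries and 1.97 with 12. *Adora1*, an adenosine receptor, rose in lung from 13.9, 14.9 and 18.98 CPM to 48.4 and 87.0 CPM and was not called in liver, a difference of 2.49 (2.18 in all 12 libraries). It overlaps the muscle gene *Mybph* on the other strand, and whether counting used the strand is not given in the sources used here. *Tor3a*, a torsin ATPase, was called in liver only, where it fell by 1.69 on the log2 scale, with 44.2, 62.2 and 51.5 CPM in WT and 15.3 and 17.3 CPM in null. *Irs1*, the adaptor of the insulin receptor, fell from 22.9, 32.2 and 33.8 CPM to 12.7 and 11.4 CPM in liver and rose from 21.6, 23.1 and 22.8 CPM to 44.5 and 30.9 CPM in lung. *Plxna2*, a semaphorin receptor, *Tmem120a* and *Ankrd9* differed by 2.00, 2.06 and 2.18. All 12 libraries gave 1.62, 1.93 and 1.57 for them, 1.87 for *Tor3a* and 2.00 for *Irs1*. The left-out null liver 1 held 23.9 CPM of *Irs1*, within the WT range. Its 12.25 CPM of *Ankrd9* lay above the WT livers at 5.45 to 7.32 CPM. For both genes null lung 1, at 72.6 and 17.7 CPM, lay above the WT lungs, as it did for *Adora1* at 20.3 CPM. It lay below the WT lungs for *Plxna2* (44.0 CPM) and *Tor3a* (22.1 CPM), and within their range for *Tmem120a* (31.9 CPM).

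Below 0, *Abca8a*, a membrane transporter of the ABC family, had the largest difference among the genes named by size, −3.45 (standard error 0.29, adjusted p = 0.00109 by edgeR's quasi-likelihood test). It stood at 26.2, 18.3 and 23.7 CPM in WT and 157 and 163 CPM in null livers, and at 21.0, 19.4 and 15.3 CPM in WT and 14.5 and 9.38 CPM in null lungs. The left-out null lung 1 held 37.5 CPM, above every other lung, and in all 12 libraries the difference was −2.53 (adjusted p = 0.0988 by edgeR). *Cybrd1*, a ferric reductase of iron uptake, rose in liver from 3.82, 2.81 and 3.81 CPM to 10.6 and 10.1 CPM and fell in lung from 53.9, 78.4 and 89.1 CPM to 31.0 and 19.98 CPM. *Ddah1*, which degrades an inhibitor of nitric oxide synthesis, rose in liver from 60.5, 73.8 and 48.3 CPM to 125 and 113 CPM and fell in lung from 36.6, 34.1 and 38.6 CPM to 9.22 and 7.53 CPM. Their differences were −3.10 and −3.09, and in all 12 libraries −2.66 and −2.01.

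*Thbd*, thrombomodulin of the vessel wall, was higher in null liver (19.8 and 36.2 CPM against 10.1, 8.38 and 7.93 CPM) and lower in null lung (218 and 204 CPM against 489, 482 and 427 CPM), a difference of −2.81 (−2.99 in all 12 libraries, adjusted p = 0.0596 by edgeR). The trace of lung RNA could supply at most 17.6% of its level in any liver library, and at most 7.91% of that of *Cybrd1*. *Adra1b*, an adrenergic receptor of the liver, moved from 8.13, 12.3 and 10.1 CPM to 29.5 and 16.8 CPM in liver and from 11.7, 14.8 and 15.4 CPM to 4.78 and 3.68 CPM in lung. *Il1rn*, the interleukin-1 receptor antagonist, was at 29.7 and 98.8 CPM in null livers 2 and 3, which lie far apart, against 15.3, 13.1 and 18.5 CPM in WT. Its difference of −3.05 became −1.94 without null liver 3, the smallest in size among 10 fits with 1 library removed. *Setdb2*, of a histone methyltransferase family, and the kinase gene *Map3k6* rose in liver (3.05 and 3.41) and were not called in lung (0.21 and 0.64). *Setdb2* stood at 79.8, 27.7 and 32.6 CPM in WT and 312 and 465 CPM in null livers, against 9.10 to 9.82 CPM in WT and 9.18 and 12.9 CPM in null lungs. With all 12 libraries the differences of *Adra1b*, *Il1rn*, *Setdb2* and *Map3k6* were −2.62, −2.72, −2.86 and −3.03.

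Of the genes named for being called in both tissues with opposite signs, ranked by the smaller of their 2 absolute log2 fold changes, those higher in null lung were *Sybu*, *Ang*, *Rnf144b*, *Srxn1*, *Lepr* and *Slc22a5*. *Slc22a5*, the carnitine transporter, fell from 24.7, 26.1 and 23.4 CPM to 13.0 and 16.1 CPM in liver and rose from 15.3, 14.6 and 14.6 CPM to 30.5 and 31.3 CPM in lung. *Lepr*, the leptin receptor, fell from 43.2, 48.7 and 61.9 CPM to 30.3 and 29.5 CPM in liver and rose from 18.6, 26.2 and 20.9 CPM to 41.5 and 33.0 CPM in lung. No WT and null values overlapped for either gene in the kept libraries, which the choice of genes called in both tissues favours. The left-out null lung 1, at 15.6 CPM for *Slc22a5* and 13.6 CPM for *Lepr*, did not lie with the other null lungs. *Srxn1*, sulfiredoxin of the antioxidant response, differed by 1.95 and *Rnf144b*, a ubiquitin ligase, by 1.83. *Ang*, angiogenin, differed by 1.79, but it shares its locus with *Rnase4* and was called in 2 of 10 fits with 1 library removed. Null lung 1 held 3.51 CPM of *Ang*, below the WT lungs, 18.1 CPM of *Srxn1*, within their range, and 24.3 CPM of *Rnf144b*, above it. With all 12 libraries the differences of *Slc22a5*, *Lepr*, *Srxn1*, *Rnf144b* and *Ang* were 1.70, 1.28, 1.62, 1.55 and 1.57.

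Among those lower in null lung were *Cybrd1*, *Adra1b*, *Thbd* and *Fdps*, given above, and *Fmo1* and *Gipc2*. *Fmo1*, a flavin monooxygenase of detoxification, stood at 51.0, 49.7 and 38.9 CPM in WT and 117 and 100.2 CPM in null livers, and at 46.3, 66.0 and 45.5 CPM in WT and 24.4 and 17.0 CPM in null lungs. In both tissues the left-out null library lay with the other null libraries, at 83.5 CPM in liver and 24.9 CPM in lung. Its difference was −2.57 with 10 libraries and −2.37 with 12 (adjusted p = 0.00224 and 0.0189 by edgeR's quasi-likelihood test, Benjamini-Hochberg adjusted). *Gipc2*, a PDZ-domain protein, differed by −2.41 (−2.43 in all 12 libraries).

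**Figure D4:**
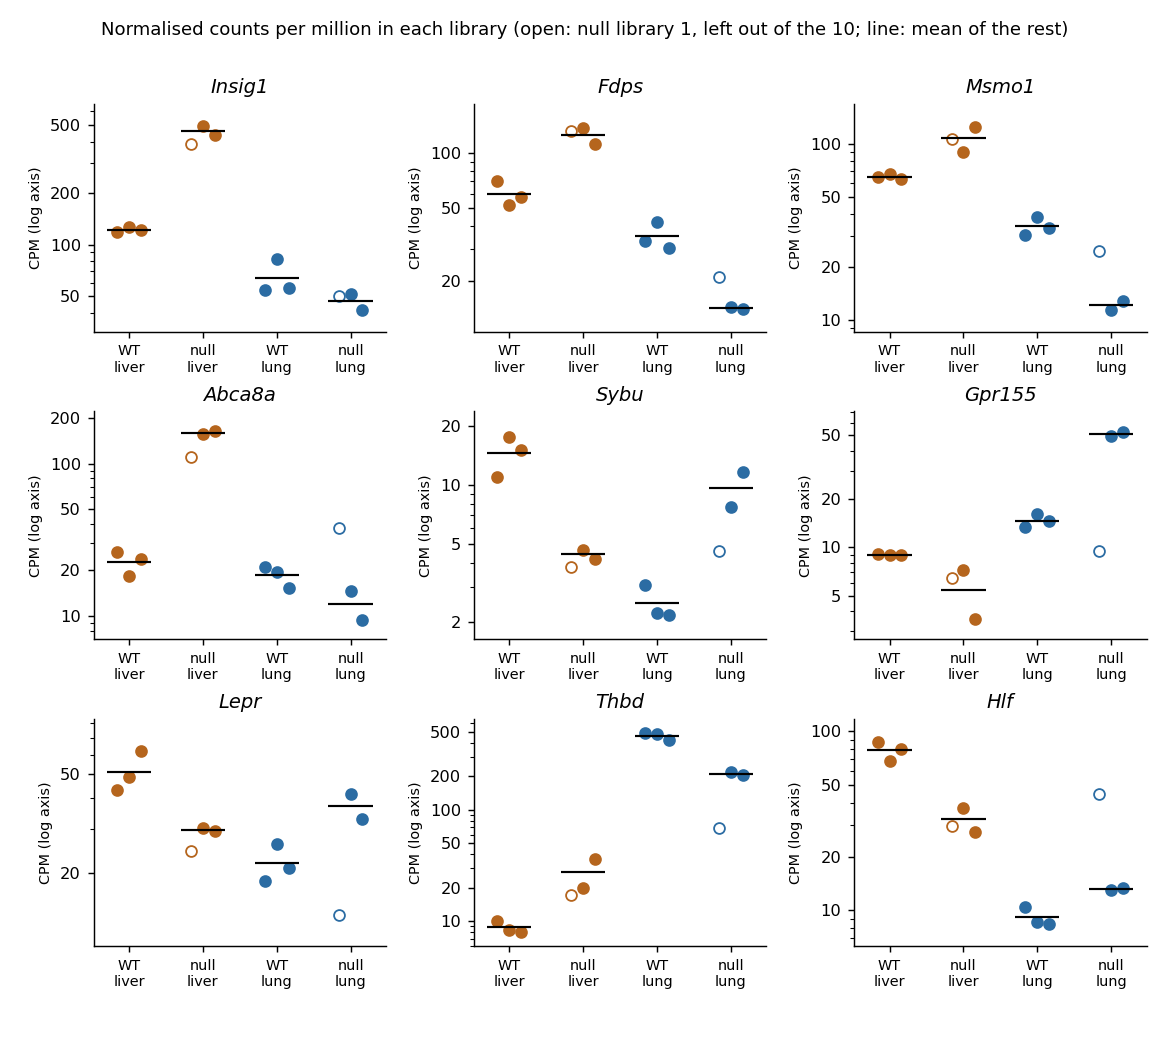
Normalised CPM on log axes for 9 genes in each library of WT liver, null liver, WT lung and null lung, with null library 1 of each tissue open and the mean of the other libraries as a line. *Insig1*, *Fdps*, *Msmo1*, *Abca8a* and *Thbd* have null means above WT in liver and below WT in lung, and *Sybu*, *Gpr155*, *Lepr* and *Hlf* the opposite.

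Genes of the circadian clock differed in the other direction. Of 19 members, 6 were called and all 6 lay above 0, against 2.25% of all genes tested, and the list median was 0.61 against 0.00. In liver 9 members were called higher in null and 2 lower, in lung 15 higher and 0 lower, and the medians were 0.81 and 1.32. *Hlf*, an output factor of the clock, was called in both tissues with opposite signs. It fell from 87.2, 68.6 and 79.6 CPM to 37.2 and 27.6 CPM in liver and rose from 10.5, 8.59 and 8.39 CPM to 13.0 and 13.4 CPM in lung, a difference of 1.80 (standard error 0.23, adjusted p = 0.00296 by edgeR's quasi-likelihood test). The left-out null lung 1 held 44.6 CPM of *Hlf*, above all other lungs.

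*Per2*, a repressor of the clock, was at 26.5, 28.3 and 28.1 CPM in WT and 20.6 and 23.1 CPM in null livers, and at 59.7, 49.2 and 44.1 CPM in WT and 72.9 and 90.97 CPM in null lungs. *Bhlhe40*, which represses clock and other genes, rose in lung from 21.6, 26.1 and 22.4 CPM to 71.1 and 62.1 CPM, and in liver null values of 100.2 and 173 CPM lay on both sides of the WT values of 104 to 118 CPM. *Cry1*, *Dbp* and *Nr1d2*, chosen after their values had been seen, made up the 6. *Nr1d2* was called higher in both tissues, 1.46 in liver and 2.15 in lung. *Per1*, *Cry2*, *Nfil3* and *Arntl* were called higher in both tissues, and their tissue differences of −0.29, −0.34, −0.30 and 0.02 were not called.

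Clock calls depended on single libraries. The 6 became 2 without WT liver 3, WT lung 2 or null lung 3, 3 without WT liver 1, null liver 2 or WT lung 3, and 4 without any of the others, and in all 12 libraries edgeR called 0 with 4 at an unadjusted p under 0.05, DESeq2 called 3 and limma voom 6. With 10 libraries 15 of 19 lay above 0 and with 12 libraries 13. The E-box CACGTG, which the factors CLOCK and BMAL1 bind, was found in the RefSeq promoter windows of 5 of 16 members, counted by gene. Counted by window, it was found in 7.15% of all windows, which is not like for like. It was found in 1 of the 4 called members with a window, *Cry1*, shown here in capitals, 60 bases before the gene on the minus strand.
Cry1, chr10:85185097-85185126: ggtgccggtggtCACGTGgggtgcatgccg
The D-box TTATGTAA, which *Hlf* and *Dbp* products bind, was found in 1 of the 16 members, *Per3*, and, counted by window, in 0.938% of all windows.

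Of the immediate early genes, which rise within minutes of a stimulus, 2 of 19 were called, *Ier3* and *Ctgf*, both below 0, where 2.93% of all genes tested were called below 0. All 19 members had values below 0 with a median of −1.37, 11 had an unadjusted p under 0.05, and 4 were called with the pup as a replicate block. In liver 15 of 19 were called higher in null, and in lung 4 higher and 3 lower. *Ier3*, which limits cell death, held 8.98, 4.29 and 9.501 CPM in WT and 12.2 and 13.8 CPM in null livers, and 68.2, 58.0 and 62.7 CPM in WT and 28.9 and 34.2 CPM in null lungs. *Ctgf*, a matrix-bound growth factor, held 19.6, 18.6 and 23.8 CPM in WT and 48.9 and 54.3 CPM in null livers, with null lungs at 347 and 178 CPM on both sides of WT lungs at 257 to 349 CPM. Null liver 3 stood apart in this list, with *Fos* at 46.4 CPM and *Egr1* at 147 CPM against 3.53 and 8.59 CPM in null liver 2. Without null liver 2 the list had 11 calls and without null liver 3 or WT lung 3 it had 0. The part of that library in the list's values was not tested.

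Among targets of ATF4, the factor of the amino acid response, 4 of 18 were called and all 4 lay below 0, against 2.93% of all genes tested. The list median was −0.45, with 15 members below 0 and 3 above. Null liver had 10 members called higher and 2 lower, and null lung 5 higher and 2 lower. Log2 fold changes in liver ran from −4.02 to 3.04, so the members did not share 1 direction there. *Psat1*, of serine synthesis, rose in liver from 242, 193 and 191 CPM to 383 and 373 CPM and was at 55.5 and 49.2 CPM in null against 63.8, 68.9 and 70.9 CPM in WT lungs. Its difference of −1.23 was called in all 12 libraries as well (−1.22, adjusted p = 0.0406 by edgeR's quasi-likelihood test, Benjamini-Hochberg adjusted). *Trib3*, a pseudokinase that restrains ATF4, rose in both tissues and more in liver, from 7.28, 5.24 and 5.82 CPM to 24.8 and 29.6 CPM, against 5.46, 5.27 and 4.93 CPM to 7.50 and 9.69 CPM in lung. *Atf5*, a related factor, fell in lung from 29.1, 27.8 and 28.1 CPM to 15.8 and 11.5 CPM and was not called in liver. It overlaps *Nup62* and *Il4i1* on the other strand, and up to 7.35% of its lung level could come from the trace of liver RNA. *Asns*, asparagine synthetase, was the remaining call at −0.80. The number of calls fell to 2 without WT lung 1, WT lung 2, WT lung 3 or null lung 3.

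The study asked after EGF, TGF-beta, hedgehog and cilia genes. Of 14 EGF receptors and ligands, 3 ligands were called, where 5.18% of all genes tested were. *Btc*, betacellulin, held 0.495, 0.495 and 0.272 CPM in WT and 2.64 and 2.34 CPM in null livers, and 3.37, 3.88 and 4.16 CPM in WT and 2.60 and 1.345 CPM in null lungs, a difference of −3.52 (standard error 0.47, adjusted p = 0.00345 by edgeR's quasi-likelihood test) and −2.85 in all 12 libraries (adjusted p = 0.0771). *Hbegf*, a heparin-binding ligand, rose in liver from 4.60, 3.22 and 3.54 CPM to 9.23 and 14.7 CPM and was at 24.5 and 18.3 CPM in null against 32.2, 28.3 and 31.0 CPM in WT lungs, a difference of −2.16. *Tgfa* went the other way, from 27.2, 30.7 and 26.1 CPM to 18.4 and 22.6 CPM in liver and from 7.50, 7.57 and 8.96 CPM to 16.7 and 16.3 CPM in lung, a difference of 1.497. All 3 ligands were called in each of 10 fits with 1 library removed, and *Hbegf* in all 12 libraries (−2.36, adjusted p = 0.0189, same test). The receptor gene *Egfr* was called higher in both tissues, 1.93 in liver and 1.08 in lung, and its difference of −0.85 was not called (adjusted p = 0.0568).

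In the TGF-beta and BMP list, 2 of 29 were called, a share near the 5.18% of all genes tested. The count became 1 without WT liver 3 or null lung 2, 4 without null lung 3 and 6 without null liver 2. *Inhbb*, a subunit of activin and inhibin, rose in liver from 3.11, 3.01 and 4.80 CPM to 16.6 and 17.0 CPM and stood at 13.0 and 14.5 CPM in null against 10.2, 14.8 and 11.6 CPM in WT lungs, a difference of −2.03. *Acvr1*, a receptor of BMP ligands, rose in lung from 21.9, 26.8 and 27.3 CPM to 39.8 and 34.9 CPM and was not called in liver, where it held 18.8, 23.8 and 22.4 CPM in WT and 16.1 and 16.6 CPM in null. Among 15 hedgehog genes 0 were called by edgeR, 3 had an unadjusted p under 0.05, and *Dhh*, a ligand, had the smallest p, with a difference of −2.02 (adjusted p = 0.0648). It stood at 12.1, 11.6 and 11.5 CPM in WT and 2.94 and 4.87 CPM in null lungs and at or below 0.638 CPM in every liver.

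Of 27 motile cilia genes that could be tested, from 28 listed, 3 were called, against 5.18% of all genes tested, and the list median was 0.33. In liver 7 members were called higher in null and 1 lower, and in lung 10 higher and 0 lower. Of all genes tested, 13.3% were called higher in null liver and 17.4% in null lung. Some members had few reads in every liver, such as *Foxj1* (1 to 15) and *Dnah5* (0 to 4), so their differences and the list median have wide errors. *Dnaic1*, an intermediate chain of the outer dynein arm, was lower in null liver (2.67 and 1.70 CPM against 3.004, 9.95 and 9.47 CPM) and was at 3.68 and 3.18 CPM in null against 1.46, 1.62 and 1.94 CPM in WT lungs, a difference of 2.80. *Dnaic2*, its partner chain, rose in both tissues, from 1.31, 0.867 and 0.715 CPM to 10.5 and 9.44 CPM in liver and from 2.27, 5.63 and 4.25 CPM to 9.94 and 9.41 CPM in lung, a difference of −2.10. With 10 libraries the counts of these genes thus differed in opposite directions. Whether the liver reads of *Dnaic1* came from ciliated cells was not tested. In all 12 libraries the differences were 1.77 for *Dnaic1* and −1.70 for *Dnaic2* (adjusted p = 0.465 and 0.237 by edgeR's quasi-likelihood test). The left-out null liver 1 held 334 reads of *Dnaic1*, above the 85, 241 and 278 reads of WT livers 1, 2 and 3. *Rfx2*, a factor of cilia genes, differed by −1.09. Each of the 3 was called in 2 of 10 fits with 1 library removed, and *Dnaic1* overlaps *Enho* on the other strand. Of 27 genes of intraflagellar transport and the BBSome, *Traf3ip1* was the 1 called, where 5.18% of all genes tested were. It was at 16.2, 14.7 and 14.9 CPM in WT and 8.63 and 6.08 CPM in null livers and 19.6, 24.03 and 25.2 CPM in WT and 22.1 and 26.8 CPM in null lungs.

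Of 18 genes of N-glycan trimming and branching, *Man1a2* among them, 2 were called, where 5.18% of all genes tested were. *St6gal1*, which adds sialic acid to glycan ends, rose in liver from 104, 98.6 and 103 CPM to 331 and 269 CPM and less in lung, from 65.7, 76.2 and 73.7 CPM to 95.9 and 91.2 CPM, a difference of −1.18 (standard error 0.17, adjusted p = 0.00575 by edgeR's quasi-likelihood test). *Mogs*, the glucosidase that starts trimming, was at 67.4 and 72.5 CPM in null against 53.3, 56.4 and 59.7 CPM in WT livers and fell from 31.7, 32.0 and 31.6 CPM to 22.1 and 16.5 CPM in lung, a difference of −1.03. *Man2a1*, a further mannosidase gene, differed by 0.68 and was not called (adjusted p = 0.0523 by edgeR's quasi-likelihood test). It was called higher in null lung (0.40) and not called in liver (−0.27). The mannosidase genes *Man1a*, *Man1b1*, *Man1c1* and *Man2a2* had differences of 0.12, −0.35, 0.38 and 0.05, and none of these was called.

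Metabolic and hormone lists had few calls, where 5.18% of all genes tested were called. *Klf15*, a factor of fasting, rose in both tissues and more in lung, from 52.9, 39.9 and 42.3 CPM to 168 and 162 CPM against 121, 105 and 106 CPM to 187 and 161 CPM in liver, and was the 1 call among 15 FoxO and fasting genes. The left-out null lung 1 held 52.5 CPM of it, within the range of WT lungs. With all 12 libraries its difference was 0.77 (adjusted p = 0.527 by edgeR's quasi-likelihood test). *Nr3c1*, the glucocorticoid receptor, rose in liver from 70.0, 73.8 and 70.4 CPM to 139 and 147 CPM and was at 184 and 152 CPM in null against 125, 151 and 130 CPM in WT lungs, a difference of −0.69 that was called in 1 of 10 fits with 1 library removed and not with the replicate block (adjusted p = 0.0542 by edgeR). *Slc37a4*, which carries glucose 6-phosphate into the endoplasmic reticulum, rose in liver (0.52) and fell in lung (−0.85). *Ehhadh*, of peroxisomal fatty acid oxidation, fell in liver from 832, 968 and 682 CPM to 455 and 473 CPM. Its lung values were 4.87 to 8.27 CPM, of which up to 24.8% could come from the trace of liver RNA, and for *Slc37a4* the share was up to 12.1%. *Slc2a1*, the glucose transporter of many cell types, rose in both tissues and more in lung, from 35.1, 35.3 and 35.3 CPM to 95.7 and 87.8 CPM, a difference of 0.94.

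In the remaining lists a single member or none was called, where 5.18% of all genes tested were. *Ccne1*, which drives entry into DNA synthesis, was called above 0 (1.28) among 24 cell cycle genes, 22 of which lay below 0 with a list median of −0.38. *Ccne1* was called in 2 of 10 fits with 1 library removed, and the list then had 5 calls without null liver 3, 1 without null liver 2 and 0 without any of the others. In all 12 libraries the list median was 0.39, so the direction of the cell cycle list turned with the left-out libraries. *Ifi35* was called below 0 (−0.82) among 14 interferon-stimulated genes and in 2 of 10 fits with 1 library removed. *Col15a1*, a basement membrane collagen, differed by 1.90 in the 10 libraries (3 of 10 fits with 1 library removed called it), with 57.0 and 38.6 CPM in null against 18.2, 23.5 and 14.9 CPM in WT lungs. The left-out null liver 1 and null lung 1 held 26.4 and 188 CPM, and in all 12 libraries the value was −0.16. The lists of endoplasmic reticulum chaperones (19 genes), hedgehog (15), endothelium (16), the IGF axis and imprinted growth (18) and the respiratory chain (23) had 0 calls by edgeR, with 3, 3, 4, 2 and 2 members at an unadjusted p under 0.05. DESeq2 on the same libraries called 1, 2, 1, 0 and 1 of them, and with the replicate block edgeR called 1, 1, 1, 0 and 0.

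**Figure D5:**
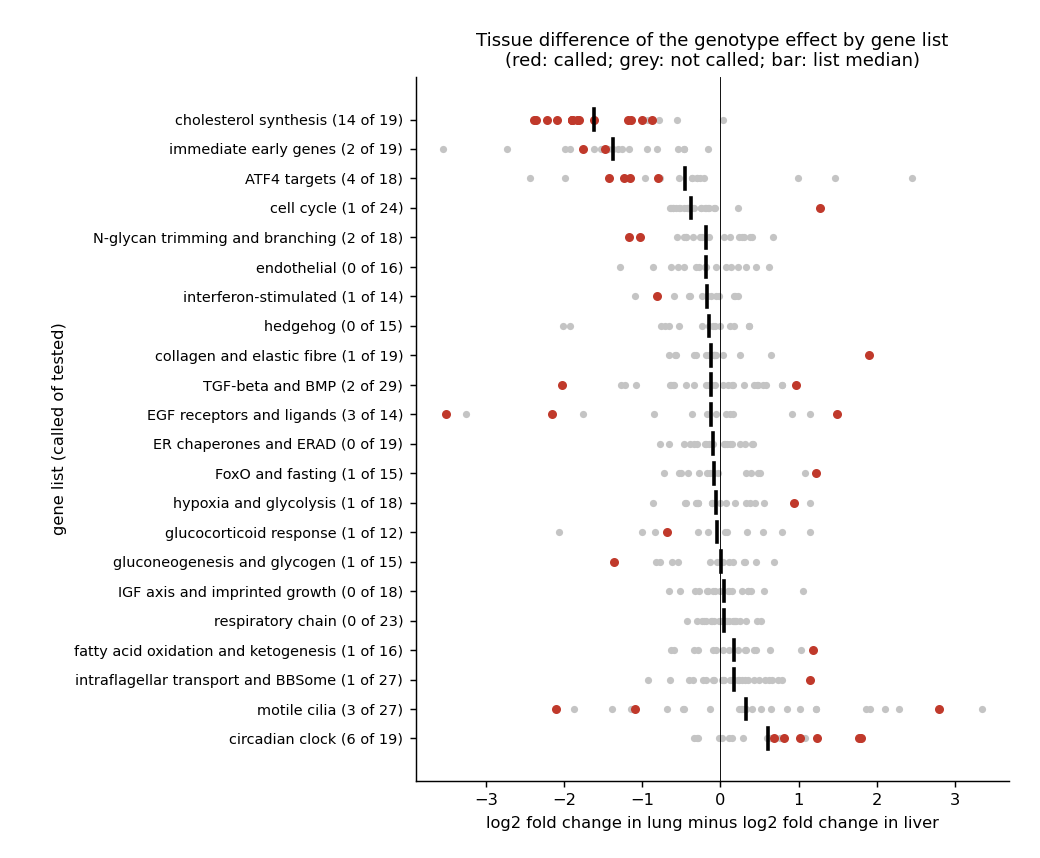
Tissue difference (log2, x axis) of each tested member of the 22 gene lists in the 10-library fit, called members in red, others in grey and the list median as a bar, with the number called of those tested after each name. Cholesterol synthesis has the lowest median (−1.61) and the circadian clock the highest (0.61).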

How the data were processed

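Per the labels and the study's methods, polyadenylated RNA was made into stranded libraries, and the authors deposited raw counts, whole numbers of reads per gene symbol, in 1 table per library with no normalization. The submitters' processing notes name STAR 2.5.2a, FastQC, DESeq2 and mm10. The annotation and the counting program are not given in the sources used here. Among the gene symbols, 27 read as dates, and they were kept in the tests but not named.

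Counts were fitted in R 4.3.3 with edgeR 4.0.16 (filterByExpr, TMM factors, 1 mean per group, quasi-likelihood test, Benjamini-Hochberg adjustment over all genes tested). A gene was called at an adjusted p under 0.05 and 1.2-fold or more, as in the study's methods. A standard error is the log2 fold change divided by the root of its F statistic. Positions are from GENCODE M21 (GRCm38). The fits were also run on simulated counts drawn independently for each library. Those counts held no shared pup effect and no single library of mixed tissue, so they could not check either feature. The lowest chi-square per gene between replicates was 14.7, so no library was a copy. Labels name no separate cultures or litters. The leading fit took its libraries as independent and did not use the pairing of liver and lung, which the blocked fit used. Its p-values measure the spread between libraries of a group.

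The members, gene lists and left-out libraries were chosen with earlier results of these data known. Genes were named by rule: *Man1a2*, then, at a mean of at least 5 CPM in each tissue, the 8 largest differences in each direction and the 6 in each direction called in both tissues with opposite signs that ranked highest by the smaller of the 2 absolute log2 fold changes, provided that they held at an unadjusted p under 0.05 in all 12 libraries and in the blocked fit, without muscle or predicted genes, and 3 members of each of the 22 lists with the smallest p. The replicate number of a genotype was taken to mark 1 pup, which the labels do not state. The reasons were that the deviations of its liver and lung correlated in every pair and that genes of the sex chromosomes matched in 6 of 6 pairs. The correlations were 0.143 to 0.447 over 12 libraries and 0.143 to 0.255 over the 10, so they were weak. Alternatives were all 12 libraries, each left-out library kept, DESeq2 1.42.0, limma 3.58.1 voom with quality weights, other scaling and filters, no minimum fold, the pup as a replicate block, and each library left out in turn. Some members of the lists are counted but not reported here by name.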

Additional observations from a re-analysis of the deposited data

Results flagged for a closer look

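The following named genes are listed because the effect of the genotype differed between lung and liver by the test of the difference itself (edgeR's quasi-likelihood test, Benjamini-Hochberg adjusted, 10 libraries). Each value is the log2 fold change of null over WT in lung minus that in liver.

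Values above 0 were found for *Sybu* (3.67), *Dnaic1* (2.80), *Gpr155* (2.52), *Adora1* (2.49), *Ankrd9* (2.18), *Tor3a* (2.11), *Tmem120a* (2.06), *Irs1* (2.04), *Plxna2* (2.00), *Srxn1* (1.95) and *Col15a1* (1.90). Smaller values above 0 were found for *Rnf144b* (1.83), *Slc22a5* (1.82), *Hlf* (1.80), *Ang* (1.79), *Lepr* (1.54), *Tgfa* (1.497), *Ccne1* (1.28), *Bhlhe40* (1.24), *Klf15* (1.22), *Ehhadh* (1.19), *Traf3ip1* (1.14), *Per2* (1.02), *Acvr1* (0.96) and *Slc2a1* (0.94).

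Values below 0 were found for *Btc* (−3.52), *Abca8a* (−3.45), *Cybrd1* (−3.10), *Ddah1* (−3.09), *Il1rn* (−3.05), *Adra1b* (−2.91), *Setdb2* (−2.84), *Thbd* (−2.81), *Map3k6* (−2.77), *Fmo1* (−2.57), *Gipc2* (−2.41), *Fdps* (−2.36), *Msmo1* (−2.22), *Hbegf* (−2.16), *Dnaic2* (−2.10) and *Inhbb* (−2.03). Smaller values below 0 were found for *Ier3* (−1.76), *Stard4* (−1.61), *Ctgf* (−1.48), *Trib3* (−1.43), *Slc37a4* (−1.36), *Psat1* (−1.23), *St6gal1* (−1.18), *Atf5* (−1.15), *Rfx2* (−1.09), *Mogs* (−1.03), *Ifi35* (−0.82) and *Nr3c1* (−0.69).

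With all 12 libraries each of these values kept its sign except that of *Col15a1*. For the genes named by size or by opposite signs the naming rule required this, so it is no separate support. The libraries left out were chosen with their values known.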

How the results depend on the processing

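Among the 90 named genes, 53 were called, and 1268 of the 1271 values that the alternatives gave for them kept their sign. Genes named by size or by opposite signs were required to keep it with all 12 libraries and in the blocked fit. The other fits reuse the same libraries, so this count is not separate support. By edgeR the number of called genes depended on null lung 1. With all 12 libraries edgeR called 60 genes for the tissue difference (21 above 0, 39 below 0, 20 of opposite signs), 1921 in liver and 2284 in lung. With null lung 1 kept and null liver 1 left out it called 6 (1 above 0, 5 below 0, 3 of opposite signs), 1038 in liver and 2076 in lung. DESeq2 on the 10 libraries called 1631 (696 above 0, 935 below 0), 828 of them among the 840, and on all 12 it called 610, with 57 of opposite signs. With the pup as a replicate block the 10 libraries gave 994 calls, 731 of them among the 840. Of the 53 called named genes, *Nr3c1* alone lost its call under it. In lists of few calls it gave 3 against 1 in gluconeogenesis and in intraflagellar transport, and 2 against 1 in fatty acid oxidation, hypoxia and interferon genes. The pairing block with all 12 libraries gave 0 (0 above and 0 below), with 2224 genes at an unadjusted p under 0.05, while DESeq2 and limma voom called 610 and 649 genes from the same libraries without it. The cause of these changes was not tested.

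Leaving out 1 of the 10 libraries gave 389 (without WT lung 2 or WT lung 3) to 856 genes, with 172 to 331 above 0, 214 to 525 below 0, 76 to 146 of opposite signs, 2240 to 4350 called in liver and 4054 to 6120 in lung. More than 1.5 times fewer genes were also called without WT liver 1 (499), WT liver 3 (440), WT lung 1 (521) and null lung 3 (507). Where 1 null library remained, its spread was taken to be that of the other groups. *Man1a2* ranged from −0.63 to −0.29.

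Sign changes: with all 12 libraries *Acadm* was 0.41, *Pdk1* 0.29, *Kif20a* 0.19, *Col15a1* −0.16, *Fbn2* 0.38, *Igfbp6* −0.41 and *Sdha* 0.47, and by DESeq2 0.44, 0.31, 0.22, −0.089, 0.43, −0.37 and 0.50. With null liver 1 kept, *Col15a1* was −1.10 and *Igfbp6* −0.11. With null lung 1 kept, *Acadm* was 0.24, *Pdk1* 0.17, *Kif20a* 0.19, *Gpc1* 0.69, *Fbn2* 1.12 and *Sdha* 0.45. With the replicate block and all 12 libraries, *Acadm* was 0.15, *Pdk1* 0.14, *Igfbp6* −0.25 and *Sdha* 0.17. Of these, *Col15a1* alone was called in the 10 libraries.

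Other scalings and filters, no minimum fold and removing haemoglobin and 20 other abundant genes kept each count within 1.5 times. Genes near the floor have wide errors at these depths.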
